A study of Homo sapiens with 8 samples.

Results

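The 44 genes described here encode the proteins that license replication origins, build and run the DNA replication fork, and carry the cell from G1 into S phase. They were taken as a named list and looked up by symbol in a table of 25435 genes from HGC27, an established human gastric carcinoma line. All 44 were in the table, and all 44 passed the filter on low counts that left 13213 genes for testing. The cells are labelled as having no p53, and this holds for every group including the control. Cells overexpressed GFP, the control, or p53 with 1 of 3 substitutions in its DNA-binding domain, R175H, R248Q or R273H, with 2 mRNA libraries per group and 8 in all. R175H is usually classed as a substitution that unfolds the domain, and R248Q and R273H as substitutions of residues that touch DNA. The sources used here do not give the vector, its promoter, the time after its introduction or whether a group was 1 clone. The labels do not say whether the replicates came from separate cultures, so the p-values measure only the spread between these libraries.

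In G1, the origin recognition complex binds DNA, and CDC6 and CDT1 load the MCM2 to MCM7 ring there as an inactive helicase. Geminin, encoded by GMNN, holds CDT1 in check once S phase has begun. Kinases then recruit CDC45 and GINS to the ring, and the resulting helicase travels with polymerases alpha, delta and epsilon, the PCNA clamp and its RFC loader. Many of these genes are induced at the G1/S boundary by E2F factors. In bulk RNA such as this, fewer S phase cells and less RNA per cell cannot be told apart.

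The promoter stretches of 4 genes on which the results below turn are shown because many replication genes are known as E2F targets. Each is the 250 bases before the start given by RefSeq on GRCh38.p14, read 5' to 3' on the gene's strand, with matches to the E2F core letters in capitals. CDT1 lies at chr16:88803539-88803788 on the plus strand, PCNA at chr20:5126623-5126872 on the minus strand, ORC6 at chr16:46689409-46689658 on the plus strand and FEN1 at chr11:61792661-61792910 on the plus strand. CDT1, PCNA, ORC6 and FEN1 were among the genes that changed with R175H.
CDT1: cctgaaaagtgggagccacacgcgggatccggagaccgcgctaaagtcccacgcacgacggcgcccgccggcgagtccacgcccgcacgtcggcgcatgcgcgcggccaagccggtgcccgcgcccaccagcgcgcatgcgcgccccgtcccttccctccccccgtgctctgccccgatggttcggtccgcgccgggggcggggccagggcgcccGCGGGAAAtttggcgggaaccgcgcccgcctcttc
PCNA: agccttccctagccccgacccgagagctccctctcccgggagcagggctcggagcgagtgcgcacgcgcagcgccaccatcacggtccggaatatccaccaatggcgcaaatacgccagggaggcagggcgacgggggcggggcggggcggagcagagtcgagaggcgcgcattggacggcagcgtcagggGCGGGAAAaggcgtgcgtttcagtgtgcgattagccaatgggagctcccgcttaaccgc
ORC6: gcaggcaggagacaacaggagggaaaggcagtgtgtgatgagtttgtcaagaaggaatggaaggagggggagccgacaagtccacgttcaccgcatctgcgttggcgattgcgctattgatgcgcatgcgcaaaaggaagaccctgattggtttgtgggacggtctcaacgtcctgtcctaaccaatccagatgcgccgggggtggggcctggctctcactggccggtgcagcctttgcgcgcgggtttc
FEN1: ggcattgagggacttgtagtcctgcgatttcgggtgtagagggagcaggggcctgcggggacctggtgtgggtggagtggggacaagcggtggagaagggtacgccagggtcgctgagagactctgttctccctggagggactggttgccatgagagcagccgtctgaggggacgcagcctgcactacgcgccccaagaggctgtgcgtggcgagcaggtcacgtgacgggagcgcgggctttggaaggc
The letters searched, on both strands, were TTTCCCGC, TTTCGCGC, TTTGCCGC and TTTGGCGC. CDT1 held 1 match, 35 to 28 bases before its start, and PCNA held 1 match, 59 to 52 bases before its start. ORC6 and FEN1 held 0 in this window. Of the 37 genes of the list with a promoter in the RefSeq table, 15 held at least 1 match (40.5%), against 2.79% of 27305 promoters of the same length. CCAAT, the letters bound by NF-Y, was in 21 of the 37 (56.8%), against 33% of all promoters. The CHR letters TTTGAA or TTCGAA, known from G2/M promoters, were in 1 of the 37 (2.7%), against 14.6% of all promoters. The hypoxia response core letters ACGTG or GCGTG were in 24 of the 37 (64.9%), against 43.1% of all promoters. The promoters compared were not matched for base composition, and the list was chosen to include E2F targets. These shares are descriptions, and no excess was tested. Among the 7 genes called in at least 1 comparison below, CDT1, PCNA and POLE held an E2F core match, and ORC6, FEN1, GINS1 and GINS3 did not.

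Total counts ran from 6800463 to 11788035 per library. The epithelial markers KRT18, EPCAM and CDH1 were near 0 throughout, and the gastric markers TFF1, TFF2, GKN1 and PGC had no count, so defining markers of gastric epithelium were absent. KRT8, also epithelial, had 13 and 10 counts with GFP, 3 and 3 with R175H, 33 and 39 with R248Q, and 14 and 29 with R273H. It was called higher with R248Q than with GFP (1.32, adjusted p = 0.031), a call lost without GFP replicate 1 or any R175H or R248Q library, with an adjusted p of 0.23 without R248Q replicate 2. It was also called higher with R248Q and R273H than with R175H (adjusted p = 9.6e-04 and 0.028), the first lost without R175H replicate 2 (adjusted p = 0.062) and the second without R273H replicate 2 (adjusted p = 0.32) or any R175H or R248Q library. The mesenchymal marker VIM had 38853 to 58903 counts and was called higher with R175H than with GFP (0.20, adjusted p = 0.018), a call lost without any 1 mutant library (0.18 to 0.25). VIM was also called lower with R248Q than with R175H (-0.28, adjusted p = 0.0021). That call was lost without R175H replicate 1 or either R248Q library. Of the other mesenchymal markers, FN1 had 246 to 475 counts and ZEB1 432 to 741. Neither was called with R175H against GFP (-0.09 and 0.25). CDH2 had 2 to 10 counts and did not pass the filter. The part of these markers in the results below was not tested. The endothelial markers CDH5 and KDR and the blood markers CD3E and HBB also had no count. Of 6 markers listed for HEK293 or neural cells, 3 passed the filter: NEFL with 60 to 117 counts, LIN28B with 47 to 139 and PAX2 with 58 to 128. NEFM and SOX2 had at most 2 counts in any library, and STMN2 had no count. What these markers mean for the identity of the cells was not tested. The GFP replicates differed more than those of other groups, with a chi-square per degree of freedom of 5.72 against 1.21 to 1.60. GFP replicate 1 was low in long transcripts: 865 genes of at least 8000 nt had a median log2 deviation of -0.28 there, against -0.04 in GFP replicate 2 and 0.14 and 0.13 in the R248Q libraries.

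Levels are given in CPM, counts scaled to a common library size after TMM normalisation, which sets the scale so that most genes are level. The 44 genes together took 0.581% to 0.627% of each library's counts. Their summed level was 6287 and 6210 CPM in the GFP libraries, 5860 and 5879 CPM with R175H, 6002 and 5962 CPM with R248Q, and 6144 and 6130 CPM with R273H. The R175H libraries were thus the lowest pair and the GFP libraries the highest. GFP replicate 1 held the highest of the 8 values for 19 of the 44 genes and GFP replicate 2 for 10, where over all tested genes they held it for 22% and 11.6%. R175H replicates 1 and 2 held the lowest value for 14 and 11 of the 44, where over all tested genes they held it for 16.8% and 12.9%. The plot of all 44 genes by library shows this tilt.

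**Figure D1:**
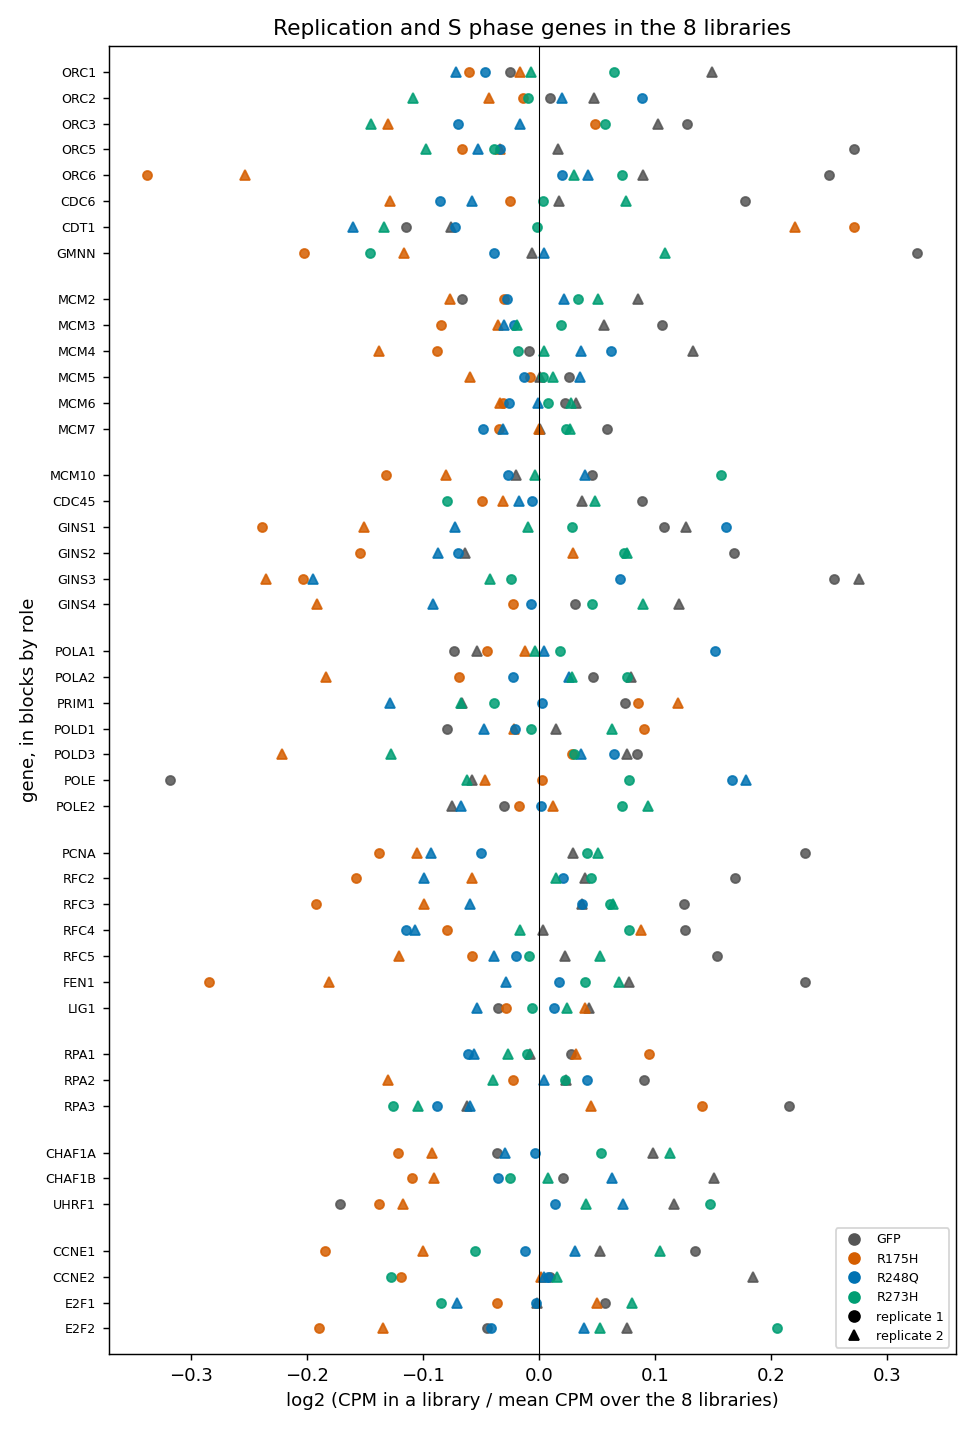
Each row is 1 of the 44 genes, in blocks by role, and each point is the log2 of a library's CPM over the gene's mean across the 8 libraries; circles are replicate 1 and triangles replicate 2. R175H points lie to the left in most rows, CDT1 is the row where both lie far to the right, and MCM5, MCM6, MCM7 and LIG1 are the tightest rows.

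A gene was called when edgeR's quasi-likelihood test gave a Benjamini-Hochberg adjusted p under 0.05 over all 13213 tested genes, and fold changes are log2 values with their SE from that fit. With R175H, 5 of the 44 genes fell against GFP (ORC6, GINS3, FEN1, GINS1 and PCNA) and 1 rose (CDT1), which is 11.4% and 2.27% of the list. Of all tested genes, 4.81% were called lower and 6.59% higher in this comparison, 11.4% in either direction. The median fold change of the 44 was -0.14, a change in level of -9.06%, with 35 of 44 below 0, whereas the median of all genes was 0.01 and 48% of them were below 0. Both R175H libraries lay below both GFP libraries for 29 of the 44 genes and above them for 6, while 24.3% and 26.8% of all genes did so. The number called lower depended on single libraries: it was 10 without GFP replicate 1, 12 without GFP replicate 2, 3 without R175H replicate 1 and 2 without R175H replicate 2. Without GFP replicate 2 the number called higher was 2, through POLE (0.29, adjusted p = 9.5e-04).

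**Figure D2:**
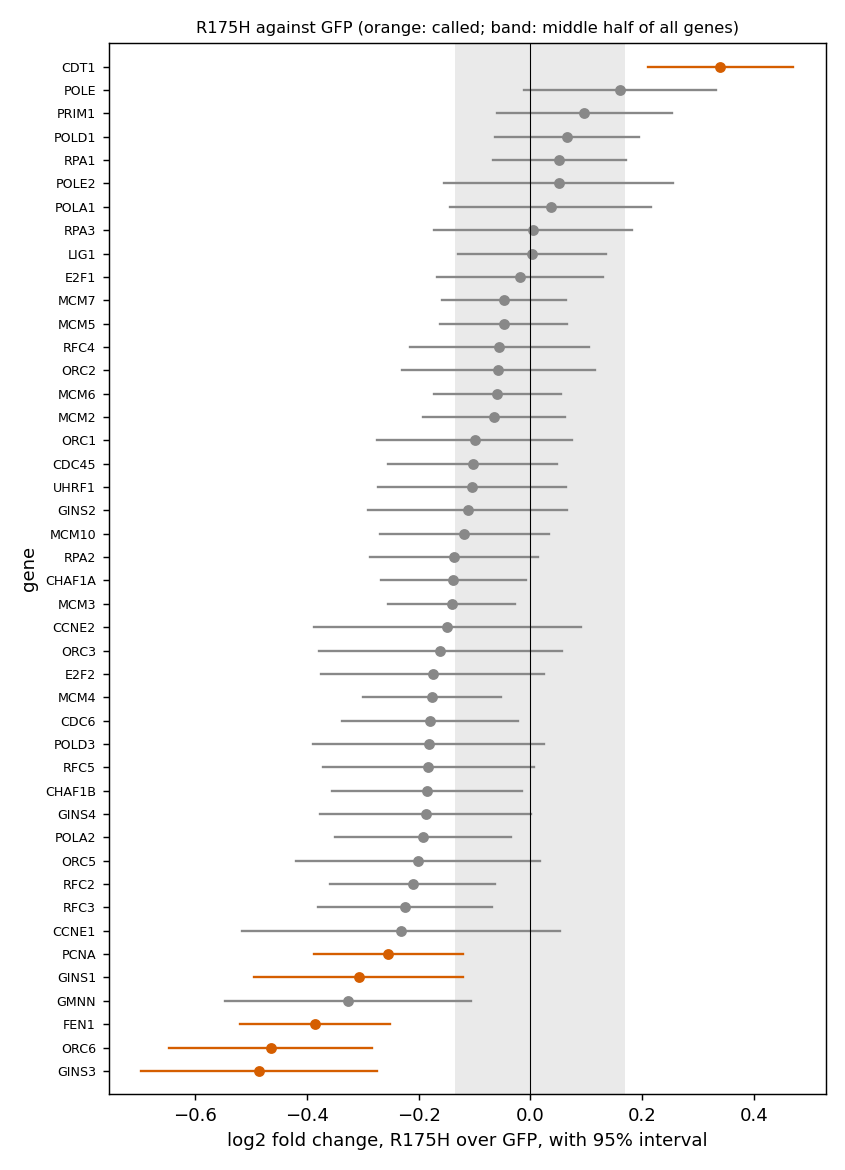
Points are log2 fold changes of R175H over GFP for the 44 genes with 95% intervals, orange where called, and the grey band spans the lower to the upper quartile of all tested genes (-0.13 to 0.17). CDT1 stands alone on the right, and GINS3, ORC6 and FEN1 lie farthest left.

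Of the 8 origin recognition and licensing genes, 7 had a negative fold change with R175H, with a median of -0.17. CDT1, the loader of the MCM ring, was the exception. Its level was 185 and 190.4 CPM in the GFP libraries, 242 and 234 CPM with R175H, 191 and 179.6 CPM with R248Q, and 200.4 and 183 CPM with R273H. The R175H libraries were both above the other 6, which overlapped one another. The rise over GFP was 0.34 ± 0.06 on the log2 scale (adjusted p = 0.0016), and it kept its call under each of the 19 alternatives. R248Q lay below R175H by -0.36 ± 0.06 (adjusted p = 0.0011) and R273H by -0.31 ± 0.06 (adjusted p = 0.0061). The first of these was not called without R248Q replicate 2 (-0.31, adjusted p = 0.068). The second was not called without R175H replicate 1 (-0.29, adjusted p = 0.13), R175H replicate 2 (-0.34, adjusted p = 0.069) or R273H replicate 2 (-0.25, adjusted p = 0.21).

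GMNN, whose product geminin inhibits CDT1, was at 79.97 and 63.5 CPM with GFP, 55.5 and 58.9 CPM with R175H, 62.1 and 64.0 CPM with R248Q, and 57.7 and 68.8 CPM with R273H. The R175H libraries were below both GFP libraries, but the GFP replicates were far apart and R273H replicate 1 fell between the R175H libraries. Its fold change with R175H, -0.33 ± 0.10, missed the threshold (adjusted p = 0.052). It passed with DESeq2 size factors in edgeR (-0.33, adjusted p = 0.047), library size alone, no filter or the length correction. Without GFP replicate 2, GMNN was called lower with R175H (-0.48), and also with R248Q (-0.34) and R273H (-0.34). Without GFP replicate 1 the R175H fold change was -0.15 and was not called. The counts of CDT1 per count of GMNN were 2.32 and 2.997 with GFP, 4.36 and 3.97 with R175H, 3.07 and 2.81 with R248Q, and 3.47 and 2.66 with R273H. Both R175H ratios were thus above the other 6.

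ORC6, the smallest subunit of the origin recognition complex, was at 57.9 and 51.8 CPM with GFP, 38.5 and 40.8 CPM with R175H, 49.3 and 50.1 CPM with R248Q, and 51.1 and 49.7 CPM with R273H. The R175H pair was lowest and did not overlap any other library. Its fall against GFP was -0.46 ± 0.09 (adjusted p = 0.0019), called under each of the 19 alternatives. R248Q and R273H lay above R175H by 0.32 ± 0.09 (adjusted p = 0.027) and 0.34 ± 0.09 (adjusted p = 0.031). Both of these calls were lost when any R175H library or any library of the other mutant was left out. The adjusted p without R175H replicates 1 and 2 was 0.20 and 0.14 for R248Q, and 0.26 and 0.16 for R273H. Without R248Q replicates 1 and 2 it was 0.15 and 0.18 for R248Q, and without R273H replicates 1 and 2 it was 0.22 and 0.16 for R273H. Leaving out a library of the group not compared also ended them: the adjusted p for R248Q was 0.055 without R273H replicate 2, and for R273H it was 0.071 without R248Q replicate 1 and also 0.071 without R248Q replicate 2.

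The other ORC subunits of the list were not called in any comparison. ORC1, the ATPase that starts complex assembly, was at 54.0 and 60.9 CPM with GFP, 52.7 and 54.3 CPM with R175H, 53.2 and 52.3 CPM with R248Q, and 57.4 and 54.6 CPM with R273H. ORC2 was at 48.7 and 50.01 CPM with GFP, 48.0 and 47.0 CPM with R175H, 51.5 and 49.1 CPM with R248Q, and 48.1 and 44.9 CPM with R273H. For these subunits the groups lay close together: their fold changes with R175H were -0.10 ± 0.08 and -0.06 ± 0.08. ORC3 was at 33.5 and 32.9 CPM with GFP, 31.7 and 28.0 CPM with R175H, 29.2 and 30.3 CPM with R248Q, and 31.9 and 27.7 CPM with R273H. ORC5 was at 35.1 and 29.4 CPM with GFP, 27.7 and 28.4 CPM with R175H, 28.4 and 28.0 CPM with R248Q, and 28.3 and 27.2 CPM with R273H. Every mutant library was below both GFP libraries for ORC3 and ORC5, and neither passed the test. Without GFP replicate 2, ORC5 was called lower with R175H (-0.32), R248Q (-0.31) and R273H (-0.34). ORC6 counts per ORC1 count were 1.07 and 0.851 with GFP and 0.731 and 0.752 with R175H, against 0.890 to 0.959 with the other mutants. CDC6, the partner of CDT1 in loading, ran from 76.5 to 94.6 CPM over the 8 libraries. Its fold change with R175H was -0.18 ± 0.08 (adjusted p = 0.13). It was called lower without GFP replicate 2 with R175H (-0.26) and R248Q (-0.25). Under the length correction it was also called lower with R175H (-0.22, adjusted p = 0.044) and R248Q (-0.24, adjusted p = 0.035).

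The MCM2 to MCM7 ring, the core of the helicase, held no subunit called in any comparison. MCM2 was at 279 and 310.5 CPM with GFP, 287 and 277 CPM with R175H, 287 and 297 CPM with R248Q, and 299.5 and 303 CPM with R273H. MCM3 was at 438 and 423 CPM with GFP, 383 and 397 CPM with R175H, 401 and 398 CPM with R248Q, and 412 and 401 CPM with R273H. MCM4 was at 369 and 407 CPM with GFP, 349 and 337 CPM with R175H, 387 and 380.2 CPM with R248Q, and 366 and 372 CPM with R273H. The R175H libraries were the lowest pair for MCM3 and MCM4, with fold changes against GFP of -0.14 ± 0.05 (adjusted p = 0.10) and -0.18 ± 0.06 (adjusted p = 0.061). MCM5 was at 369 and 363 CPM with GFP, 361 and 348 CPM with R175H, 359 and 372 CPM with R248Q, and 363 and 366 CPM with R273H. MCM6 was at 236 and 237 CPM with GFP, 227 and 227 CPM with R175H, 228 and 232 CPM with R248Q, and 233 and 237 CPM with R273H. MCM7 was at 1090.1 and 1047 CPM with GFP, 1022 and 1047 CPM with R175H, 1012 and 1024 CPM with R248Q, and 1064 and 1066 CPM with R273H. The range over the 8 libraries was 4.54% of the mean for MCM6, 6.51% for MCM5, 7.47% for MCM7, 11.3% for MCM2, 13.3% for MCM3 and 18.8% for MCM4, beside 6.70% for LIG1 and 39.8% for ORC6. All 6 fold changes with R175H were negative, from -0.18 to -0.05. MCM4 (-0.25) and MCM2 (-0.14) were called lower with R175H without GFP replicate 1. Without GFP replicate 2, MCM3 was called lower with R175H (-0.16) and R248Q (-0.13). With all 8 libraries, the length correction called MCM4 (-0.19, adjusted p = 0.0022) and MCM3 (-0.12, adjusted p = 0.043) lower with R175H. MCM4 was also called lower with library size alone (-0.19, adjusted p = 0.046) and with no filter beyond 1 count (-0.18, adjusted p = 0.039). Under the length correction, R248Q lay above R175H for MCM4 (0.14, adjusted p = 0.027).

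GINS, the 4-subunit complex that joins CDC45 to the ring, held called and uncalled subunits. With CDC45 and MCM10, the 6 helicase activation genes all had negative fold changes with R175H, with a median of -0.15. GINS3 was at 41.7 and 42.4 CPM with GFP, 30.4 and 29.7 CPM with R175H, 36.7 and 30.6 CPM with R248Q, and 34.4 and 34.0 CPM with R273H. Every mutant library was below both GFP libraries, and the R175H pair was lowest. The fall was -0.49 ± 0.10 with R175H (adjusted p = 0.0042) and -0.32 ± 0.09 with R248Q (adjusted p = 0.045), and the difference with R273H, -0.30 ± 0.09, was not called (adjusted p = 0.16). GINS3 lost its R175H call without R175H replicate 2 (-0.47, adjusted p = 0.071). Its R248Q call held under 7 of the 19 alternatives, and without R248Q replicate 2 the fold change was -0.19 (adjusted p = 0.44). It was also lost without either R175H library (adjusted p = 0.083 in both cases) and without R273H replicates 1 and 2 (adjusted p = 0.086 in both cases). In R273H, GINS3 was called only without GFP replicate 2 (-0.29, adjusted p = 0.041).

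GINS1 was at 58.9 and 59.7 CPM with GFP, 46.3 and 49.2 CPM with R175H, 61.1 and 52.0 CPM with R248Q, and 55.7 and 54.3 CPM with R273H. The R175H pair was below every other library. The fall against GFP was -0.31 ± 0.09 (adjusted p = 0.032), and it held under 12 of the 19 alternatives. It was lost without R175H replicate 1 (-0.27, adjusted p = 0.23), R175H replicate 2 (-0.35, adjusted p = 0.12), R273H replicate 1 (-0.31, adjusted p = 0.058) or R273H replicate 2 (-0.31, adjusted p = 0.062), and under DESeq2 (-0.31, adjusted p = 0.10). GINS2 was at 84.1 and 71.6 CPM with GFP, 67.3 and 76.4 CPM with R175H, 71.3 and 70.5 CPM with R248Q, and 78.8 and 78.9 CPM with R273H. GINS4 was at 44.1 and 46.9 CPM with GFP, 42.5 and 37.8 CPM with R175H, 43.0 and 40.5 CPM with R248Q, and 44.5 and 45.9 CPM with R273H. The R175H and GFP libraries overlapped for GINS2, which was called lower without GFP replicate 2 with R175H (-0.22) and R248Q (-0.25). GINS4 was lower with R175H by -0.19 ± 0.09, which was not called (adjusted p = 0.19). CDC45, the other helicase activator, ran from 73.5 to 82.6 CPM, and MCM10, which helps the helicase start, from 92.7 to 113 CPM. Neither was called in any comparison.

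FEN1, the nuclease that trims the flaps of Okazaki fragments, was at 246 and 221 CPM with GFP, 172 and 185 CPM with R175H, 212 and 206 CPM with R248Q, and 215 and 219.9 CPM with R273H. The R175H pair was below all other libraries, and the GFP pair above them. Against GFP, the fold changes with R248Q and R273H were -0.16 and -0.10, neither called. Without GFP replicate 2, the lower of the GFP pair, they were -0.24 and -0.18. The fall with R175H was -0.39 ± 0.06 (adjusted p = 7.3e-04), called under each of the 19 alternatives. R248Q and R273H lay above R175H by 0.22 ± 0.06 (adjusted p = 0.038) and 0.28 ± 0.06 (adjusted p = 0.015). Each call between mutants was lost when a library of either mutant was left out. The adjusted p without R175H replicates 1 and 2 was 0.29 and 0.13 for R248Q, and 0.25 and 0.082 for R273H. Without R248Q replicates 1 and 2 it was 0.27 and 0.17 for R248Q, and without R273H replicates 1 and 2 it was 0.14 and 0.21 for R273H. For R248Q it was also 0.077 without R273H replicate 1 and 0.085 without R273H replicate 2. LIG1, the ligase that seals the same fragments, stayed within 118 to 127 CPM over the 8 libraries, and its fold change with R175H was 0.00 ± 0.06 (95% interval -0.13 to 0.14). FEN1 counts per LIG1 count were 2.05 and 1.75 with GFP, 1.43 and 1.47 with R175H, 1.71 and 1.74 with R248Q, and 1.76 in each R273H library.

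PCNA, the sliding clamp, was at 353 and 308 CPM with GFP, 274 and 280.2 CPM with R175H, 291 and 283 CPM with R248Q, and 310.1 and 312 CPM with R273H. The R175H pair was lowest, the R248Q pair came next, and both R273H libraries lay between the GFP replicates. The fall with R175H was -0.25 ± 0.06 (adjusted p = 0.015). It was lost without R175H replicate 1 (-0.24, adjusted p = 0.15) or R175H replicate 2 (-0.27, adjusted p = 0.10), and without GFP replicate 1 it shrank to -0.15 with the call kept (adjusted p = 0.030). With R248Q the fold change was -0.20 ± 0.06 (adjusted p = 0.058), called lower without GFP replicate 2 (-0.30, adjusted p = 1.3e-07).

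RFC2 to RFC5, the subunits of the loader that places PCNA on DNA, were called in no comparison. RFC2 was at 127 and 116 CPM with GFP, 100.9 and 108 CPM with R175H, 114 and 105 CPM with R248Q, and 116 and 114 CPM with R273H. RFC3 was at 82.1 and 77.3 CPM with GFP, 66.0 and 70.3 CPM with R175H, 77.3 and 72.3 CPM with R248Q, and 78.6 and 78.7 CPM with R273H. These gave R175H fold changes of -0.21 ± 0.07 (adjusted p = 0.062) and -0.22 ± 0.07 (adjusted p = 0.060), with both R175H libraries below both GFP libraries. RFC4 was at 92.7 and 85.2 CPM with GFP, 80.4 and 90.3 CPM with R175H, 78.5 and 78.9 CPM with R248Q, and 89.6 and 84.0 CPM with R273H. RFC5 was at 42.9 and 39.1 CPM with GFP, 37.0 and 35.4 CPM with R175H, 38.0 and 37.5 CPM with R248Q, and 38.3 and 40.0 CPM with R273H. R175H and GFP overlapped for RFC4, and RFC5 was below by -0.18 ± 0.09 (adjusted p = 0.20). Without GFP replicate 2, RFC2 (-0.27) and RFC3 (-0.26) were called lower with R175H, and RFC2 (-0.21) and RFC4 (-0.24) with R248Q. With all 8 libraries, RFC2 and RFC3 were called lower with R175H under library size alone (-0.23 and -0.24, each adjusted p = 0.043). They were also called with no filter beyond 1 count (-0.21 and -0.22, adjusted p = 0.035 and 0.049).

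**Figure D3:**
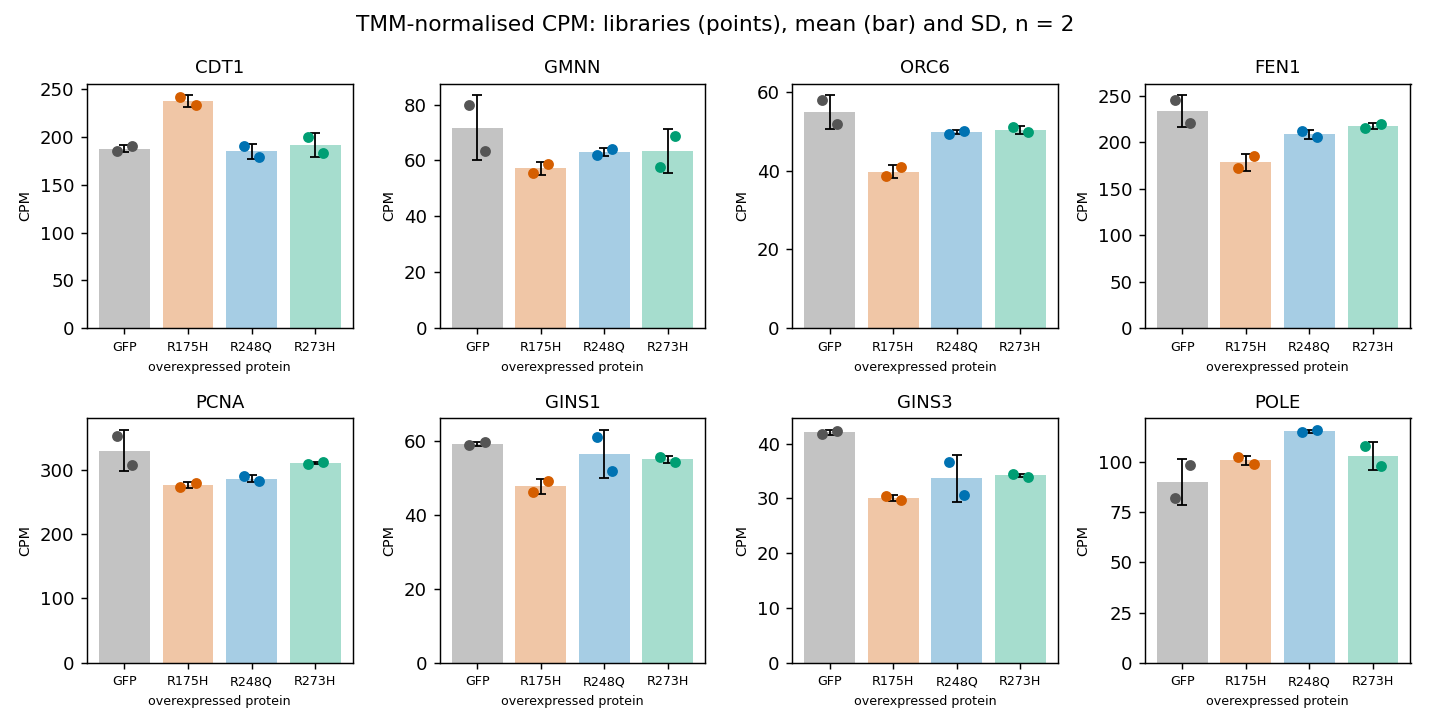
Bars are mean TMM-normalised CPM per group with SD (n = 2), and points are the libraries, for the 7 called genes and GMNN. The R175H points stand apart from all others for CDT1, ORC6, FEN1 and GINS1, and the GFP points are widely spaced for GMNN and PCNA.

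The polymerase genes did not share the downward tilt. Of the 7, 5 had a positive fold change with R175H and the median was 0.05, and none was called. POLE, the catalytic subunit of the leading-strand polymerase epsilon, was at 82.1 and 98.4 CPM with GFP, 103 and 99.1 CPM with R175H, 115 and 116 CPM with R248Q, and 108 and 98.1 CPM with R273H. The R248Q pair was highest, and GFP replicate 1 was the lowest library. With R175H the fold change was 0.16 ± 0.08 (adjusted p = 0.22). With R248Q, POLE rose against GFP by 0.36 ± 0.08 (adjusted p = 0.0089). POLE has the longest transcript of the 44 genes, 7840 nt, and GFP replicate 1 was the library low in long transcripts. After a correction for transcript length the R248Q fold change was 0.15 (adjusted p = 0.11), and 0.13 (adjusted p = 0.32) when GFP replicate 1 was also left out. Without GFP replicate 1 and no correction it was 0.23 (adjusted p = 0.025), and without R248Q replicate 1 or 2 it was 0.37 (adjusted p = 0.10) or 0.35 (adjusted p = 0.11). POLE2, the second subunit of polymerase epsilon, ran from 26.5 to 29.8 CPM with no call. PRIM1, the primase that makes RNA primers, had a fold change of 0.10 ± 0.07 with R175H (adjusted p = 0.44). POLA1 and POLA2 of polymerase alpha had 0.04 ± 0.09 (adjusted p = 0.83) and -0.19 ± 0.07 (adjusted p = 0.11), and POLD1 and POLD3 of polymerase delta had 0.07 ± 0.06 (adjusted p = 0.54) and -0.18 ± 0.10 (adjusted p = 0.25).

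The remaining roles held no called gene in any comparison. RPA1, RPA2 and RPA3, which coat single-stranded DNA, had R175H fold changes of 0.05 ± 0.06, -0.14 ± 0.07 and 0.01 ± 0.08. Against GFP, RPA3 had -0.16 with R248Q and -0.20 with R273H, neither called. Its GFP replicates were apart, at 87.5 and 72.2 CPM, and both R273H libraries lay below them. Without GFP replicate 2, the lower of the pair, the fold changes of RPA3 were -0.29 with R248Q and -0.33 with R273H. CHAF1A and CHAF1B of the histone chaperone CAF-1, and UHRF1, which guides maintenance methylation, had -0.14 ± 0.06, -0.19 ± 0.08 and -0.10 ± 0.08. Without GFP replicate 1 these became -0.20 (adjusted p = 0.0079), -0.25 (adjusted p = 0.050) and -0.24 (adjusted p = 0.0041), and all of them were then called lower. UHRF1 had the opposite sign with R175H without GFP replicate 2 (0.05, adjusted p = 0.67), and without that library it was called higher with R248Q (0.21, adjusted p = 0.0045) and R273H (0.27, adjusted p = 6.3e-04). The G1/S regulators CCNE1 and E2F2 had -0.23 ± 0.14 (adjusted p = 0.29) and -0.17 ± 0.09 (adjusted p = 0.26), and E2F1, an activator of the whole programme, had -0.02 ± 0.07 (95% interval -0.17 to 0.13). With all 8 libraries, the length correction called UHRF1 (0.23, adjusted p = 0.015), CHAF1A (0.19, adjusted p = 0.013) and E2F2 (0.30, adjusted p = 0.024) higher with R273H than with R175H. UHRF1 was also called so with no filter beyond 1 count (0.23, adjusted p = 0.026). Under the length correction RPA1 was lower with R248Q than with R175H (-0.15, adjusted p = 0.047). CCNE2, the lowest gene of the list per length, was at 22.1 and 24.95 CPM with GFP, 20.2 and 21.98 CPM with R175H, 22.1 and 22.02 CPM with R248Q, and 20.1 and 22.2 CPM with R273H.

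On a length-scaled level, CPM per kb of transcript in the GFP libraries, MCM7 was highest at 361, followed by PCNA at 243, MCM3 at 134, MCM5 at 104 and FEN1 at 102. The lowest were CCNE2 at 7.06, CCNE1 at 7.09, E2F2 at 7.61 and POLA1 at 8.15. Subunits of 1 complex differed widely: the MCM ring ran from 63.3 for MCM6 to 361 for MCM7, GINS from 11.85 for GINS4 to 29.1 for GINS2, and the listed ORC subunits from 11.4 for ORC2 to 33.7 for ORC6. MCM7 shares 277 exonic bases with AP4M1 on the other strand, and CCNE2 shares 1629 with INTS8, so part of their reads may belong to those genes. The plot of subunit levels shows that the groups differed far less than the subunits did.

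**Figure D4:**
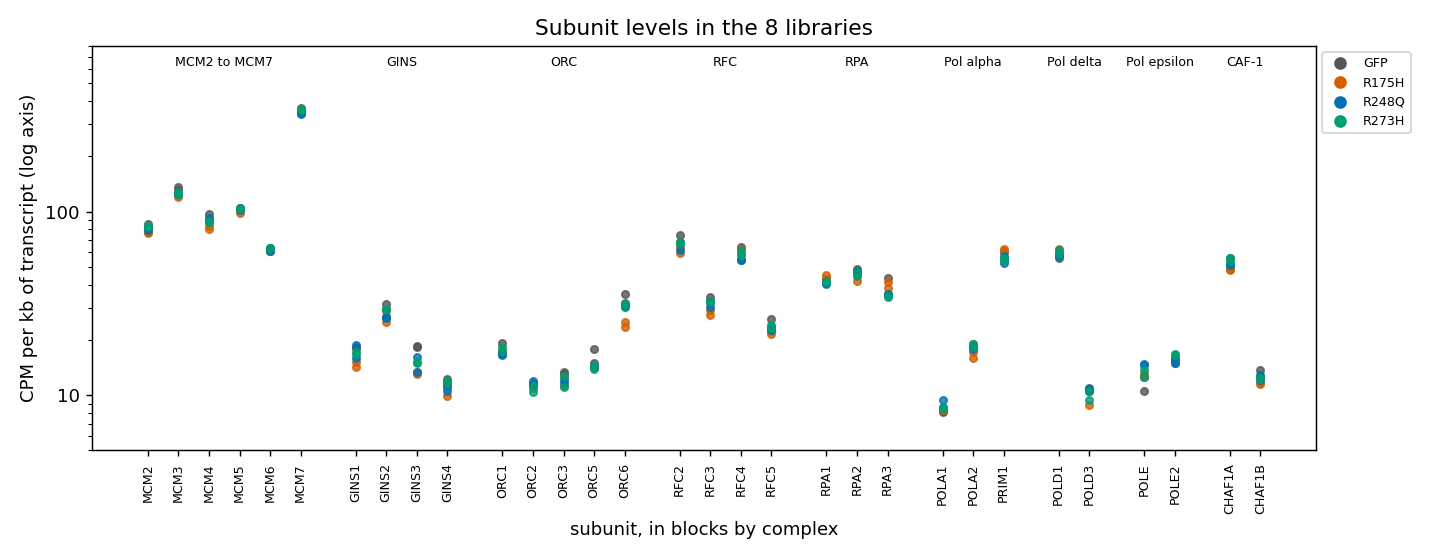
Points are CPM per kb of transcript (log axis) in each of the 8 libraries, with subunits in blocks by complex and colours for the groups. MCM7 stands above the other 5 ring subunits, and ORC6 is the ORC subunit where the R175H points separate downwards.

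With R248Q, 1 of the 44 genes rose against GFP (POLE) and 1 fell (GINS3), where 5.14% of all tested genes were called higher and 1.61% lower, 6.75% in all. With scaling by library size alone the split was 1 higher and 0 lower. The median of the 44 was -0.07, with 39 of 44 below 0 against 51.7% of all genes. Both R248Q libraries lay below both GFP libraries for 23 of the 44 and above for 2, while 25.6% and 25% of all genes did so. Without GFP replicate 2 the genes called lower numbered 12 and those called higher 2 (POLE and UHRF1). The count called lower was 0 without R175H replicate 1 or 2, R248Q replicate 2, or R273H replicate 1 or 2, and the count called higher was 0 without either R248Q library.

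With R273H, 0 of the 44 genes were called against GFP by edgeR, where 0.931% of all tested genes were called higher and 0.303% lower, 1.23% in all. At an unadjusted p under 0.05 there were 1 higher and 3 lower, and DESeq2 and limma-voom also called 0. The median was -0.05, with 32 of 44 below 0 against 50.3% of all genes, and both R273H libraries lay below both GFP libraries for 13 and above for 2, against 19.3% and 20.1% of all genes. All 44 of the 95% intervals lay within 0.5 of 0 on the log2 scale, from -0.49 for GINS3 to 0.36 for POLE. Without GFP replicate 2 there were 6 called lower and 2 higher. After the length correction 26 of 44 fold changes were below 0, and 21 when GFP replicate 1 was also left out.

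**Figure D5:**
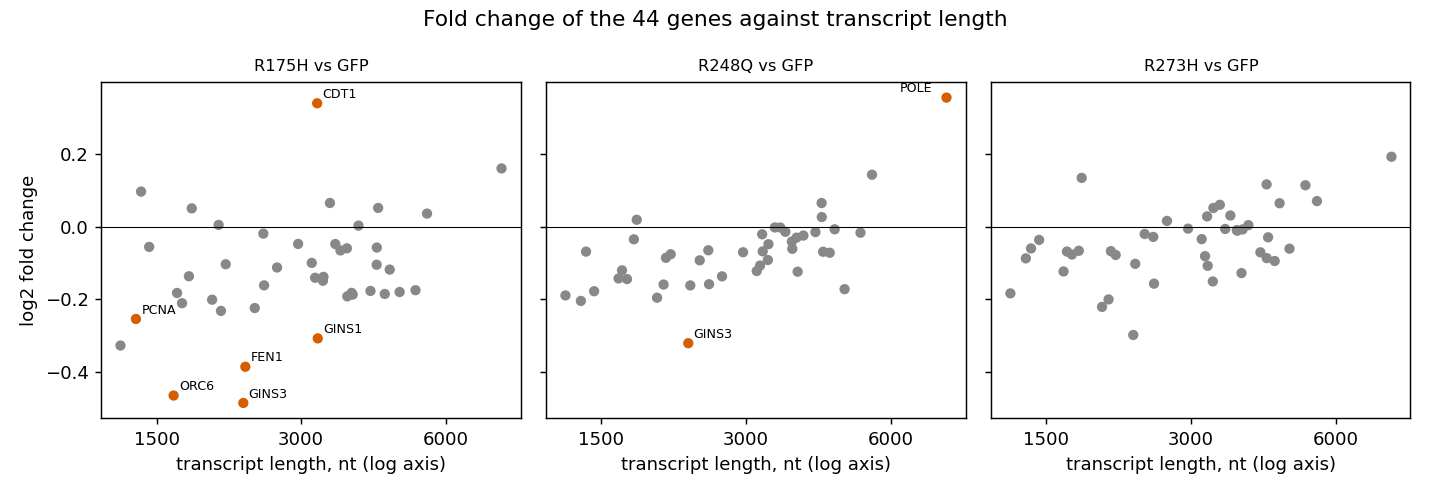
Each point is 1 of the 44 genes, with transcript length in nt on a log axis and the log2 fold change of a mutant over GFP, and orange marks called genes. POLE, the longest transcript, sits at the top right with R248Q, and the R175H calls lie at both short and middle lengths.

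Shorter genes of the list had the lower fold changes in each comparison with GFP. The 20 genes under 3000 nt had medians of -0.17 with R175H, -0.14 with R248Q and -0.07 with R273H, and the 24 longer genes had -0.11, -0.03 and -0.01. In GFP replicate 1, 1061 genes under 1500 nt had a median log2 deviation of 0.16. The length correction gave medians over the 44 of -0.12, -0.050 and -0.0066 for R175H, R248Q and R273H. With GFP replicate 1 also left out they were -0.10, -0.025 and 0.0077.

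Comparisons between mutants do not use the GFP values, though they share the GFP libraries' estimate of spread. Against R175H, R248Q was higher for ORC6 and FEN1 and lower for CDT1, where 3.35% and 4.12% of all genes were called in these directions, 7.48% in all. The median was 0.06, with 12 of 44 below 0 against 49.5% of all genes, and both R248Q libraries lay above both R175H libraries for 26 genes and below for 5, against 28.2% and 27.8% of all genes. Against R175H, R273H was also higher for ORC6 and FEN1 and lower for CDT1, where 1.46% and 2.23% of all genes were called, 3.69% in all. The median was 0.08, with 9 of 44 below 0 against 50.5% of all genes, and both R273H libraries lay above for 27 genes and below for 4, against 24.9% and 26.4% of all genes. These 2 comparisons share the R175H libraries. Without GFP replicate 1, and equally without GFP replicate 2, the counts higher and lower were 6 and 3 for R248Q, and 9 and 2 for R273H. The count higher for R248Q was 0 without either R175H library, either R248Q library or R273H replicate 2, and 1 without R273H replicate 1. For R273H it was 0 without any R175H or R273H library, and 1 without either R248Q library. The count lower was 0 for R248Q without R248Q replicate 2, and 0 for R273H without either R175H library or R273H replicate 2.

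R273H and R248Q differed in 0 of the 44 genes by edgeR, where 0.00757% of all genes were called higher and 0.197% lower, 0.204% in all, with 0 higher and 1 lower at an unadjusted p under 0.05 and 0 by DESeq2 and by limma-voom. The median was 0.03, with 13 of 44 below 0 against 49% of all genes, and both R273H libraries lay above both R248Q libraries for 19 genes and below for 5, against 23.6% and 23% of all genes. All 44 of the 95% intervals lay within 0.5 of 0, from -0.32 for POLE to 0.32 for GINS2. POLE, the 1 gene under an unadjusted p of 0.05 (-0.16 ± 0.08, adjusted p = 0.60), was called lower without GFP replicate 1 or GFP replicate 2, which enter only the estimate of spread.

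Some values rest on reads that may be shared. PCNA has a namesake antisense gene, PCNA-AS1, in the table, but it was not among the genes found to share exonic bases with PCNA in GENCODE 29. PCNA-AS1 was at 124 and 128 CPM with GFP and 111 and 113 CPM with R175H, a difference of -0.16 (adjusted p = 0.12). FEN1 shares 166 exonic bases with TMEM258 on the other strand, which differed by -0.06 with R175H, and GINS3 shares 394 with an antisense gene that is not in the table.

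Other genes of the pathway, in lists of their own, are given beside the 4.81% of all tested genes called lower and 6.59% called higher with R175H. Of 15 further licensing and firing genes, 3 fell and 0 rose: CDC25A, the phosphatase that frees CDK activity, by -0.49 ± 0.09 (adjusted p = 0.0015), DBF4, the activator of CDC7 kinase, by -0.33 ± 0.09 (adjusted p = 0.032), and cyclin A2, CCNA2, by -0.26 ± 0.07 (adjusted p = 0.021). CDC25A kept its call under each of the 19 alternatives, whereas DBF4 kept it in 9 (-0.43 to -0.25) and CCNA2 in 15 (-0.35 to -0.18). DBF4 lost its call when any library other than GFP replicate 1 was left out, and CCNA2 without either R175H library. CDC25A was at 46.5 and 47.4 CPM with GFP, 31.3 and 35.1 CPM with R175H, 46.0 and 46.7 CPM with R248Q, and 44.7 and 45.6 CPM with R273H, so that only the R175H pair was apart. Of 25 other fork, clamp and polymerase genes, 0 were called by edgeR with R175H, with 0 higher and 2 lower at an unadjusted p under 0.05 and a median of -0.04. Of 11 replication-coupled chromatin genes, the histone chaperones NASP (-0.28 ± 0.06, adjusted p = 0.0081) and ASF1A (-0.32 ± 0.09, adjusted p = 0.035) fell and 0 rose, kept in 16 (-0.37 to -0.18) and 9 (-0.38 to -0.25) of the 19 alternatives. NASP lost its call without either R175H library, and ASF1A without any library other than GFP replicate 1. Of 11 nucleotide supply genes, DCTPP1, a nucleotide pyrophosphatase, fell (-0.35 ± 0.08, adjusted p = 0.0067), and 0 rose. DCTPP1 kept its call in 17 (-0.40 to -0.28) and lost it without either R175H library.

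Among 27 E2F, pocket protein and G1 regulators, 3 fell and 2 rose with R175H. CCND3, a D-type cyclin, fell by -0.62 ± 0.08 (adjusted p = 1.3e-04), and CDKN1B, the CDK inhibitor p27, rose by 0.33 ± 0.06 (adjusted p = 0.0028), each under all 19 alternatives. TFDP1, the partner of E2F factors, fell by -0.23 ± 0.06 (adjusted p = 0.021, kept in 10, -0.30 to -0.14), a call lost without GFP replicate 1, R273H replicate 2 or any R175H or R248Q library. CDK6 rose by 0.41 ± 0.13 (adjusted p = 0.043, kept in 6, 0.17 to 0.62) and SKP2 fell by -0.19 ± 0.06 (adjusted p = 0.049, kept in 7, -0.23 to -0.16). Both were lost when any mutant library was left out, and CDK6 also without GFP replicate 1. Among 32 G2 and mitosis genes, 10 fell and 0 rose with R175H, where 4.81% of all tested genes were called lower, with a median of -0.11. Without R175H replicate 1, CCNB1 alone of the 10 kept its call. They included CCNB1 (-0.29 ± 0.05, adjusted p = 0.0018), CDC20 (-0.28 ± 0.06, adjusted p = 0.0028), AURKA (-0.35 ± 0.07, adjusted p = 0.0035) and BIRC5 (-0.30 ± 0.06, adjusted p = 0.0035). CCNB1 kept its call under all 19 alternatives, Without R175H replicate 1, AURKA (-0.30, adjusted p = 0.080), CDC20 (-0.26, adjusted p = 0.072) and BIRC5 (-0.27, adjusted p = 0.083) were not called, nor were CDK1, PLK1, MAD2L1, KIF23, UBE2C and PTTG1. Without R175H replicate 2, CDK1, PLK1, MAD2L1, UBE2C and PTTG1 were not called. These genes also lost their calls without either R248Q library, and all of them but PLK1 without GFP replicate 1. CDK1, PLK1 and UBE2C lost theirs without either R273H library too. Among 17 replication stress and checkpoint genes the median was 0.00, with CDC25A, which is in both lists, and ATRIP (-0.48 ± 0.11, adjusted p = 0.011, kept in 17, -0.55 to -0.38) lower and 0 higher. ATRIP lost its call without either R175H library.

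With R248Q, 5.14% of all tested genes were called higher and 1.61% lower. TICRR, which brings TOPBP1 to origins, rose by 0.52 ± 0.09 (adjusted p = 0.0014), and was the 1 of 15 licensing genes called. After the length correction with GFP replicate 1 left out it was 0.33 (adjusted p = 0.020). POLE4 was the 1 of 25 fork genes called (-0.31 ± 0.08, adjusted p = 0.036, kept in 6 of 19, -0.41 to -0.19), lost without GFP replicate 1 or any mutant library. CDK6 was the 1 of 27 G1 regulators called higher (0.72 ± 0.11, adjusted p = 6.8e-04), and CDKN2D and CCND3 were lower (-0.68 ± 0.15 and -0.29 ± 0.08, adjusted p = 0.0097 and 0.029). CDK6 was 0.31 (adjusted p = 0.15) after the length correction with GFP replicate 1 left out. CDKN2D (-0.87 to -0.58) lost its call without either R248Q library, and CCND3 (-0.37 to -0.17) without GFP replicate 1 or any mutant library. Of the 32 G2 and mitosis genes, MKI67 and CENPF, both with long transcripts, rose by 0.84 ± 0.10 (adjusted p = 3.6e-05) and 0.53 ± 0.07 (adjusted p = 1.2e-04), which the length correction reduced to 0.46 and 0.21 with the calls kept. CCNB1 fell by -0.23 ± 0.05 (adjusted p = 0.012), lost without either R248Q library (-0.26 to -0.17 over the alternatives), and BIRC5 by -0.23 ± 0.06 (adjusted p = 0.024), lost without GFP replicate 1 or any mutant library (-0.30 to -0.12). The fifth called gene of this list, PTTG1, fell by -0.30 ± 0.08 (adjusted p = 0.044) and kept its call in 5 of 19 (-0.46 to -0.07). Without GFP replicate 1 PTTG1 was at -0.11 (adjusted p = 0.44), and its call was also lost without any 1 mutant library. BRCA2 was the 1 of 17 checkpoint genes called (0.63 ± 0.13, adjusted p = 0.0045), and it was not called after the length correction (0.26, adjusted p = 0.12) or without R248Q replicate 1 (0.65, adjusted p = 0.054) or R248Q replicate 2 (0.61, adjusted p = 0.073). With R273H the calls in these lists were CDK6 (0.49 ± 0.12, adjusted p = 0.049, kept in 4 of 19, 0.26 to 0.70) and MKI67 (0.43 ± 0.10, adjusted p = 0.043, kept in 9, 0.17 to 0.67). Both were lost when any mutant library was left out, and CDK6 also without GFP replicate 1. MKI67 was 0.22 without GFP replicate 1 and 0.67 without GFP replicate 2.

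Between mutants, CDC25A was higher with R248Q and with R273H than with R175H, by 0.47 ± 0.09 (adjusted p = 0.0022) and 0.44 ± 0.09 (adjusted p = 0.0068). The first was lost without R175H replicate 1, and the second without R175H replicate 1 or either R273H library (ranges over the alternatives 0.40 to 0.57 and 0.36 to 0.53). CCND3 was likewise higher by 0.33 ± 0.08 (adjusted p = 0.024) and 0.43 ± 0.08 (adjusted p = 0.0065), and both calls were lost when any library of the compared groups was left out (0.27 to 0.39 and 0.37 to 0.49), the first also without R273H replicate 2. Of the 27 G1 regulators, 4 were higher and 3 lower with R248Q than with R175H, where 3.35% and 4.12% of all genes were called. CDKN1B was lower (-0.33, adjusted p = 0.0034), and CCND1 and E2F7 were higher (0.27 and 0.42, adjusted p = 0.011 and 0.015). TICRR (0.38, adjusted p = 0.014), ATAD5 (0.52, adjusted p = 0.012) and CLSPN (0.25, adjusted p = 0.046) were also higher. All these calls were lost without either R248Q library. Of the 32 G2 and mitosis genes, 5 were higher with R248Q than with R175H and 2 with R273H, where 3.35% and 1.46% of all genes were called higher. With R248Q, CENPF kept its call under all 19 alternatives (0.33 to 0.54), MKI67 lost it without R175H replicate 2 (0.57, adjusted p = 0.056), and KIF23, CENPE and ESPL1 lost it without any R175H or R248Q library. KIF23 was also lost there without R273H replicate 2, and CENPE and ESPL1 without either R273H library. With R273H, PLK1 (0.19 to 0.21) and KIF23 (0.24 to 0.42) lost theirs without any R175H or R273H library, and PLK1 also without either R248Q library. Besides CCND3, the G1 regulator CCND1 was higher with R273H than with R175H (0.23, adjusted p = 0.042). That call was lost when any mutant library was left out.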

How the data were processed

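Libraries came from a Kapa mRNA kit, per the labels' protocols. Per the submitters' processing notes, bcl2fastq and STAR 2.5 were used with hg19. The deposited table holds raw counts for each gene. How reads were counted, with which annotation and strand setting, is not given in the sources used here.

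Of 25435 genes, 6937 had no count. Genes were kept by filterByExpr (minimum count 10, minimum total 15) and scaled by TMM (factors 0.989 to 1.01). Group means were fitted to all 8 libraries by robust quasi-likelihood in edgeR 4.0.16 under R 4.3.3. The fit had 4 residual degrees of freedom, and its biological coefficient of variation was 4.51%. All 6 pairs of groups were compared, with calls at a Benjamini-Hochberg adjusted p under 0.05. The code was tested on simulated data. Same-numbered replicates were not treated as pairs, since the labels do not say that a replicate number pairs libraries. Their deviations from the group means correlated at -0.09 to 0.05.

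Each comparison was repeated in 19 ways. Scaling was by DESeq2's size factors or by library size alone, and the filter was dropped to 1 count or set to a mean CPM of 1. DESeq2 1.42.0 and limma-voom 3.58.1 replaced edgeR. A fit was made to the compared groups alone, and another with a replicate block. Each library was left out in turn, which assumes that the lone sample of its group varies like the other groups. Fold changes were corrected for transcript length by loess (span 0.3, GENCODE 29 lengths, found for 93.4% of tested genes), with and without GFP replicate 1, and libraries were thinned to the shallowest.

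Members, lists and alternatives were chosen with earlier results of these data known. Library values are given for called genes, for subunits of the MCM, GINS, ORC and RFC complexes and for the genes highest and lowest per length. Each pathway list names up to 4 called genes per comparison by lowest p. GMNN, and in those lists SKP2, PTTG1 and the mitosis genes beyond the first 4, were named after their values were seen, as were members that changed their call when a library was left out. Promoters are from RefSeq on GRCh38.p14. The check of the overexpressed gene in each library is not reported here.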

Additional observations from a re-analysis of the deposited data

How the results depend on the processing

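CDT1, ORC6 and FEN1 kept their R175H calls against GFP under all 19 alternatives, with log2 fold changes of 0.32 to 0.37, -0.54 to -0.37 and -0.46 to -0.28. The number of the 44 genes called lower with R175H, 5 as reported, was 9 with library size alone, 9 with no filter beyond 1 count, 3 with only the groups compared, 9 with the length correction and 8 when GFP replicate 1 was also left out. Its median of -0.14 was -0.15, -0.12, -0.10 and -0.12 under library size alone, the length correction, that correction without GFP replicate 1, and thinning. For R248Q against GFP the count lower, 1 as reported, was 2 with no filter and 0 with library size alone, DESeq2, only the groups compared, the replicate block, the length correction without GFP replicate 1, and thinning; the count higher, 1 as reported, was 0 with only the groups compared and with both length corrections. Its median of -0.07 was -0.050, -0.025 and -0.081 under the length corrections and thinning. For R273H against GFP the median of -0.05 was -0.059 with library size alone, -0.0066 with the length correction and 0.0077 without GFP replicate 1 as well, where its sign changed.

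For R248Q against R175H the count higher, 2 as reported, was 0 under DESeq2 and the replicate block and 6 with only the groups compared and with the length correction without GFP replicate 1; the count lower, 1 as reported, was 4, 2 and 2 with only the groups compared and the length corrections; the median of 0.06 was 0.080 with library size alone and 0.049 with thinning. For R273H against R175H the count higher, 2 as reported, was 1 under DESeq2 and the replicate block, 8 with only the groups compared, and 6 and 10 with the length corrections; the count lower, 1 as reported, was 2 with only the groups compared and with the length correction without GFP replicate 1. For R273H against R248Q, 1 higher and 1 lower were called with only the groups compared, and the median of 0.03 was 0.018 with library size alone. The cause of these changes was not tested.

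Leaving out each library in turn gave 1 to 2 higher, 2 to 12 lower and medians of -0.14 to -0.11 for R175H against GFP; 0 to 2, 0 to 12 and -0.074 to -0.055 for R248Q against GFP; 0 to 2, 0 to 6 and -0.063 to -0.018 for R273H against GFP; 0 to 6, 0 to 3 and 0.038 to 0.075 for R248Q against R175H; 0 to 9, 0 to 2 and 0.078 to 0.095 for R273H against R175H; and 0 to 0, 0 to 1 and 0.024 to 0.035 for R273H against R248Q. Over all genes, R175H against GFP gave 303 to 1858 higher and 154 to 1559 lower across the alternatives. Under the replicate block, GINS1 with R175H (-0.31, adjusted p = 0.059), GINS3 with R248Q (-0.32, adjusted p = 0.076), and ORC6 and FEN1 with R248Q against R175H (0.32 and 0.22, adjusted p = 0.055 and 0.082) and ORC6 with R273H against R175H (0.34, adjusted p = 0.066) were not called. With 2 libraries per group, the median SE of the 44 genes against GFP was 0.075, 0.073 and 0.073 on the log2 scale, which limits what could be called.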
